A study of Homo sapiens with 9 samples.

Results

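The proximal 15q window is the first stretch of the long arm of human chromosome 15 after the centromere, taken as every p300 peak of hg19 chromosome 15 whose midpoint lies from 20 to 25 Mb. It was chosen by peak density in these same lists, so its density is given as a description and supports nothing. The rule found 304 peaks among the 19861 peaks of the 5 deposited lists, or 1.53% of them, and among the 717 peaks of chromosome 15. The lists come from p300 chromatin immunoprecipitation and sequencing in PC3 cells, an established line from a metastatic human prostate cancer.

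All cells received 20 Gy of radiation and were fixed with 1% formaldehyde 1 h later. The untreated group (2 lists, PC3-1 and PC3-2) had no drug beforehand. The treated group (3 lists, T2E-1, T2E-2 and T2E-3) had 30 µM MnTE-2-PyP for 24 h before irradiation; the labels also call this drug T2E, and it is a manganese porphyrin that mimics superoxide dismutase. Unirradiated cells are not among the groups, and every list comes from 1 cell line. The series describes the lists of a group as biological replicates, without saying how the cultures were kept apart. The whole lists held 2313 and 2039 peaks without the drug and 4922, 10059 and 528 with it. Read depth is unknown, because a peak list carries no read counts. The peak names carry run identifiers, which the labels do not explain: T2E-1 has the one of PC3-1, T2E-3 the one of PC3-2, and T2E-2 one of its own.

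p300 is a histone acetyltransferase and coactivator that transcription factors recruit to promoters and enhancers. Proximal 15q is known for large duplicated blocks next to the centromere, which hold many pseudogenes and near-identical gene copies, and for an imprinted cluster further along the arm that is lost or silenced in Prader-Willi syndrome. In the RefSeq gene table, whose build is GRCh38 and which was used for names and order alone, 160 genes lie from HERC2P3 to SNRPN, of which 86 are pseudogenes and 25 code for proteins. The limits of the window were not placed in that table, so these are not counts for the window. POTEB, POTEB2 and POTEB3 and the olfactory receptor genes OR4M2 and OR4N4 lie in duplicated blocks and come early in that order. The unique genes NIPA1 and NIPA2 (magnesium transporters), CYFIP1 (a regulator of actin and of translation) and TUBGCP5 (a part of the gamma-tubulin complex) follow, with golgin-like GOLGA6L genes on both sides of them. The imprinted MKRN3, MAGEL2, NDN and SNRPN, expressed from the paternal chromosome, come last. The peaks are on another build and no hg19 annotation was used, so no peak is assigned to a gene here; regions are named by their hg19 positions, counted from 1.

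The window held 49 and 31 peaks in PC3-1 and PC3-2, and 106, 104 and 14 in T2E-1, T2E-2 and T2E-3. T2E-1 and T2E-2 were above both PC3 lists and T2E-3 was below both, so the groups overlapped. The means were 40.0 ± 12.7 peaks without the drug (SD, n = 2) and 74.7 ± 52.5 with it (SD, n = 3), a log2 ratio of 0.90 that was smaller than the spread among T2E lists (exact two-sided permutation p = 0.4, where 0.1 is the smallest this design can give). In the lists that share a run identifier the number was 2.16-fold higher with the drug (T2E-1 over PC3-1) and 2.21-fold lower with it (T2E-3 against PC3-2). Their mean log2 ratio was -0.017, opposite in sign to the pooled value. The log2 ratio was 0.58 without T2E-2 and 1.39 without T2E-3.

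As a share of the whole list, the window held 2.12% of PC3-1 (95% Wilson interval 1.61 to 2.79%) and 1.52% of PC3-2 (1.07 to 2.15%). It held 2.15% of T2E-1 (1.78 to 2.60%), 1.03% of T2E-2 (0.854 to 1.25%) and 2.65% of T2E-3 (1.59 to 4.40%). These intervals cover counting error only. The group means of 1.82% ± 0.423 (SD, n = 2) and 1.95% ± 0.828 (SD, n = 3) differed by 0.13 percentage points, less than the spread within either group (exact two-sided permutation p = 0.8). The difference was 0.035 points in the pair that includes PC3-1 and 1.13 points in the pair that includes PC3-2. Its sign turned without PC3-2 (-0.17) and without T2E-3 (-0.23), and it grew to 0.58 points without T2E-2.

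Within chromosome 15 the window was the fullest 5 Mb step in each list. It held 59.8% and 50.8% of the chromosome's peaks in PC3-1 and PC3-2, and 53.8%, 29.1% and 70.0% in T2E-1, T2E-2 and T2E-3. The next fullest of the other 16 steps held 7, 12, 19, 53 and 2 peaks in the same order of lists, and started at 25 or 40 Mb. T2E-2 stood lowest, with 253 of its 357 chromosome 15 peaks elsewhere on the chromosome. The group means were 55.3% ± 6.32 (SD, n = 2) and 51.0% ± 20.6 (SD, n = 3), a difference of -4.31 percentage points (exact two-sided permutation p = 0.9) that became 6.62 points without T2E-2, 0.16 points without PC3-1 and -13.8 points without T2E-3. The pair with PC3-1 gave -5.95 points and the pair with PC3-2 gave 19.2 points.

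**Figure D1:**
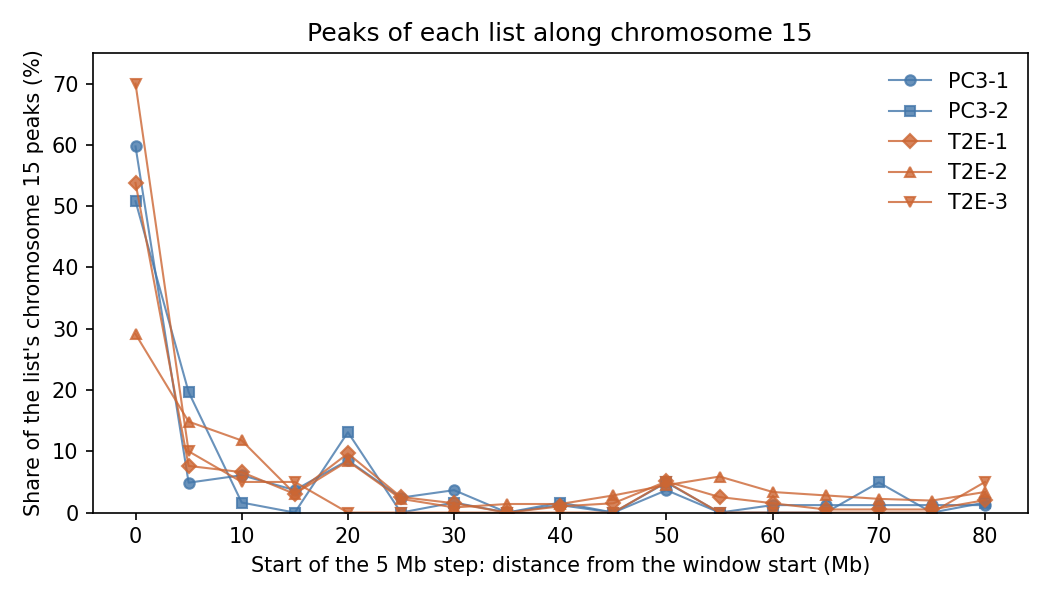
Share of each list's chromosome 15 peaks (%, vertical axis) in successive 5 Mb steps (horizontal axis, distance of the step's start from the window start in Mb); each point is 1 step of 1 list, blue for untreated and orange for treated. The first step, which is the window, is the highest in every list, from 29.1% in T2E-2 to 70.0% in T2E-3.

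Peaks per Mb were 9.80 and 6.20 in the PC3 lists and 21.2, 20.8 and 2.80 in the T2E lists inside the window. Over the remaining 77.5 Mb of the chromosome, up to its last peak, they were 0.426 and 0.387 in the PC3 lists and 1.17, 3.26 and 0.0774 in the T2E lists. The ratio of the densities was 23.0 and 16 in the PC3 lists and 18.1, 6.37 and 36.2 in the T2E lists. Against all other chromosomes together with the rest of chromosome 15 it was 12.9, 9.23, 13.2, 6.25 and 16.3 in the same order. These ratios describe the density that chose the window and were not tested; with chromosome 15 as the reference they were lowest in T2E-2 and highest in T2E-3.

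The members were not spread evenly over the window. In bins of 0.25 Mb, the bins from 20.25 to 20.5 Mb and from 20.5 to 20.75 Mb were the fullest, with 58 and 62 peaks of all lists together. PC3-1 had 12 and 13 peaks in them, PC3-2 had 5 and 10, and T2E-1, T2E-2 and T2E-3 had 21 and 22, 17 and 13, and 3 and 4. These 0.5 Mb, found after the values were seen, held 51.0% and 48.4% of the untreated members and 40.6%, 28.8% and 50% of the treated members. Outside them the window still had 12.5- and 9.19-fold the density of the rest of chromosome 15 in the PC3 lists and 11.9-, 5.04- and 20.1-fold in the T2E lists.

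One more group of fuller bins ran from 21 to 21.5 Mb, with 23 and 17 peaks, and another from 21.75 to 22.25 Mb, with 16 and 23. The bin from 22.5 to 22.75 Mb held 7 peaks in PC3-1, 1 in PC3-2, 4 and 7 in T2E-1 and T2E-2 and 0 in T2E-3. The bin from 23.25 to 23.5 Mb held 4 and 1 untreated and 7, 9 and 0 treated peaks. Only 5 of the 20 bins had a peak in every list, namely the 2 fullest and those starting at 21, 21.75 and 22 Mb. No list had a peak from 21.5 to 21.75 Mb or from 24.5 to 24.75 Mb. Of all members 75.7% lay below 22.5 Mb, and 5 lay at or above 24 Mb. The 8 fullest bins of the whole chromosome were all in the window, and the fullest bin outside it, from 25.25 to 25.5 Mb, held 12 peaks.

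**Figure D2:**
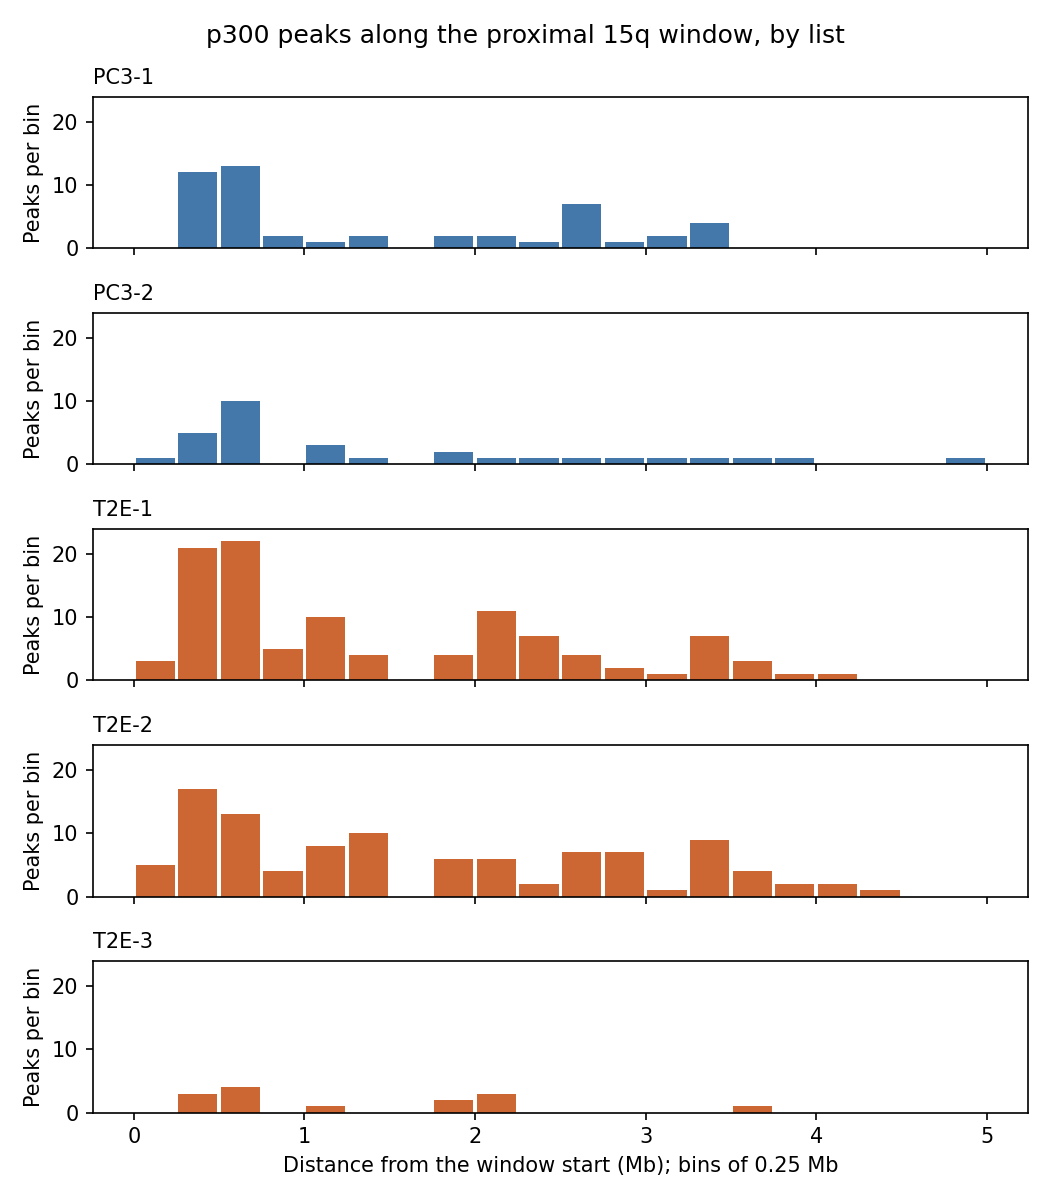
Number of p300 peaks in each 0.25 Mb bin (vertical axis, 1 panel per list) against distance from the window start in Mb (horizontal axis); blue panels are untreated and orange panels treated lists. The bins from 0.25 to 0.75 Mb have peaks in all 5 panels, 25 and 15 untreated and 43, 30 and 7 treated peaks, and the bin from 1.5 to 1.75 Mb is empty in all of them.

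At the limits of the rule, the first member lay at 20209262 to 20209608 in T2E-2 (score 5.94), and no list had a chromosome 15 peak before the window. The last member lay at 24993797 to 24994270 in PC3-2 (score 5.93). The first peak outside lay 424.8 kb further on, at 25418546 to 25419070 in T2E-2 (score 7.75).

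The median distance between midpoints of neighbouring peaks of a list was 19.8 kb in PC3-1 and 63.5 kb in PC3-2, against 13.8, 12.3 and 19.4 kb in T2E-1, T2E-2 and T2E-3. In the rest of chromosome 15 it was 940.6 and 463.1 kb in the PC3 lists and 309.9, 128.2 and 5693 kb in the T2E lists. Neighbours lay under 10 kb apart for 17 of 48 gaps in PC3-1 and 9 of 30 in PC3-2. The counts were 45 of 105, 45 of 103 and 6 of 13 in T2E-1, T2E-2 and T2E-3. That is 30.0% to 46.2% of the gaps inside the window, against 0.0% to 14.4% outside it. The spacing is a property of the density that chose the window and was not tested.

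Members of all lists that lay within 10 kb of a neighbour formed 86 runs, of which 38 were single peaks. The fullest run covered 63.6 kb from 20500640 to 20564204 and held 54 peaks: 11 and 10 of the PC3 lists and 17, 12 and 4 of the T2E lists. The second covered 44.2 kb from 20443955 to 20488152 and held 32 peaks, with 6 and 2 untreated and 13, 8 and 3 treated. The third covered 4.80 kb from 22040232 to 22045030 and held 13 peaks, with 1 and 1 untreated and 6, 2 and 3 treated. These 3 runs held 32.6% of all members, and each had peaks of all 5 lists.

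Overlap between lists was examined next. Merging peaks with 1 bp or more in common left the window with 214 regions, of which 47 were in 2 or more lists. That is 22.0% of the regions (95% Wilson interval 16.9 to 28.0%), against 6.40% (4.34 to 9.35%) of the 375 regions in the rest of chromosome 15 and 10.4% of all 16701 regions of the genome. In 3 or more lists were 22 regions of the window, or 10.3% (6.89 to 15.1%), against 2.13% (1.08 to 4.15%) in the rest of the chromosome and 4.23% of all regions. Of the 22, 17 lay in the 2 fullest bins. The Wilson intervals of regions, here and below, cover counting error only. They take each region as independent, which regions close together may not be. The pooled regions mix the lists in different proportions. T2E-2 gave 104 of the 304 members, but 253 of the 413 other chromosome 15 peaks and 10059 of all 19861 peaks. Outside the window its peaks were the least shared of the 5 lists, so the make-up of the lists differs along with these shares. Its part in the gap was not tested. Density and sharing were both higher in the window than in the rest of the chromosome, and whether they are linked was not tested.

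List by list, 44.9% and 61.3% of the members in PC3-1 and PC3-2 overlapped a peak of another list, against 27.3% and 33.3% of their other chromosome 15 peaks. In T2E-1, T2E-2 and T2E-3 the shares were 39.6%, 41.3% and 78.6%, against 19.8%, 8.70% and 50%. The window was higher than the rest of the chromosome in 5 of 5 lists. Among all peaks outside the window, on every chromosome, the shares were 42.9% and 32.8% in the PC3 lists. They were 27.5%, 13.8% and 84.8% in T2E-1, T2E-2 and T2E-3. Against that reference the window was lower in T2E-3 and nearly level in PC3-1. The Wilson intervals of window and rest did not overlap in T2E-1 (30.8 to 49.1% and 12.9 to 29.1%) and T2E-2 (32.4 to 51.0% and 5.81 to 12.8%), and they overlapped in the other lists. These intervals cover counting error only and take each peak as independent, which members close together may not be. Because an overlap counts for both lists, the shares of the 5 lists are not independent either, and no difference was tested. Within the 2 fullest bins 52.0% and 93.3% of the members of the PC3 lists and 51.2%, 66.7% and 85.7% of those of the T2E lists were shared. In the rest of the window the shares were 37.5% and 31.3% for the PC3 lists and 31.7%, 31.1% and 71.4% for the T2E lists.

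**Figure D3:**
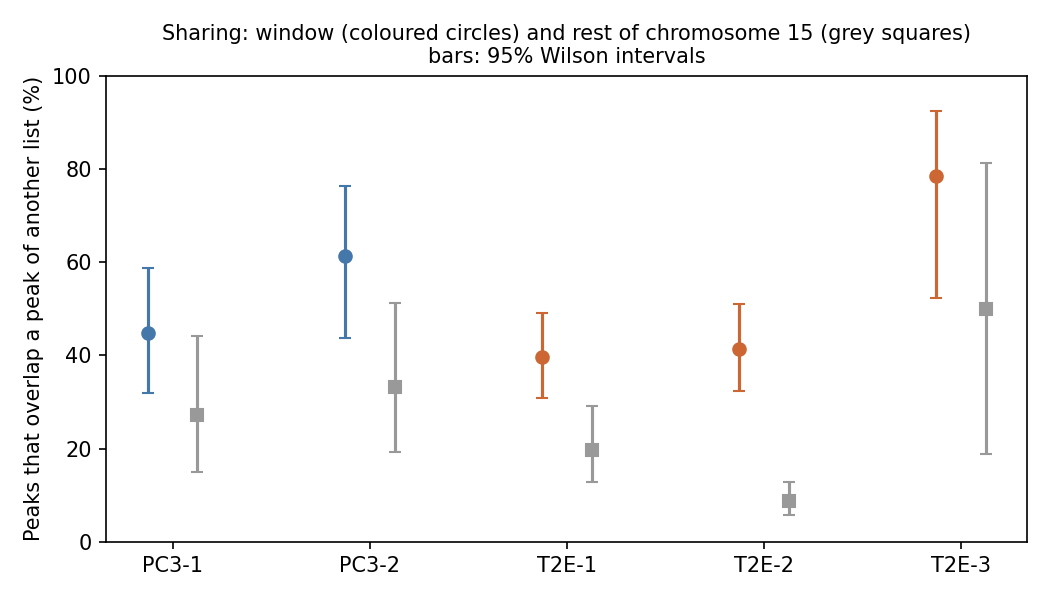
Share of peaks that overlap a peak of another list (%, vertical axis) for the window (coloured circles) and the rest of chromosome 15 (grey squares) in each list; bars are 95% Wilson intervals that cover counting error only. The circle lies above the square in all 5 lists, and the bars are apart in T2E-1 and T2E-2.

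Pairs of lists were then compared by the percentage of window peaks of the list with fewer of them that overlapped a window peak of the other. The PC3 lists overlapped each other at 22.6% (7 of 31). T2E-1 and T2E-2 overlapped at 29.8% (31 of 104), T2E-1 and T2E-3 at 50% (7 of 14) and T2E-2 and T2E-3 at 78.6% (11 of 14). Across the groups, PC3-1 overlapped T2E-1, T2E-2 and T2E-3 at 26.5%, 30.6% and 21.4%, and PC3-2 overlapped them at 38.7%, 51.6% and 21.4%. The same-group mean was 45.2% and the between-group mean 31.7%. The difference of 13.5 points reached the smallest p the design allows, 0.1 (exact one-sided permutation test), which is above 0.05. It rested on T2E-3 with its 14 members and became -10.7 points without that list, and it was 26.6 points without PC3-2. In the rest of chromosome 15 the means were 24.7% and 23.7%.

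Few regions were in every list of 1 group and in no list of the other. One region, at 20550900 to 20551508, was in both PC3 lists (scores 11.1 and 4.97) and no T2E list, which is 0.467% of the window's regions against 0.186% of all regions. One region, at 20449761 to 20450421, was in all 3 T2E lists (scores 11.9, 12.7 and 4.95) and no PC3 list, against 0.24% of all regions. Both lie in the 2 fullest bins. In all, 15 regions were in at least 2 T2E lists and no PC3 list, which is 7.01% (95% Wilson interval 4.29 to 11.2%) against 2.40% (1.27 to 4.50%) in the rest of the chromosome and 2.93% of all regions. Of the 15, 12 were in T2E-1 and T2E-2 alone, the lists with the most members, so length of list moves with this count. The count was 4 without T2E-1 and 3 without T2E-2.

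The best ranked of the regions in exactly 2 T2E lists lay at 22900492 to 22900848, with scores of 17.9 in T2E-1 and 8.21 in T2E-2, at score percentiles of 92.2 and 88.8 within those lists. The next was at 21364795 to 21365195 (14.2 and 6.20), followed by 20487729 to 20488152 (11.9 and 6.33) and 21145058 to 21145480 (6.44 and 8.04). The fifth, at 21089215 to 21089517, was in T2E-2 and T2E-3 (6.09 and 7.47). No single region was tested: with 2 lists against 3, an exact permutation test could not go below p = 0.1.

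Of the 214 regions, 2 were in all 5 lists, or 0.935% (Wilson interval 0.257 to 3.34%). The share was 0.267% in the rest of chromosome 15 and 0.886% of all regions, both inside that interval. By this count the window was close to the share of all regions. The region at 22040232 to 22045030 is 4799 bp long and was built from 13 peaks. Its best scores were 6.05 and 9.64 in PC3-1 and PC3-2 and 14.8, 15.1 and 7.32 in T2E-1, T2E-2 and T2E-3. These are percentiles of 26.3 and 90.5 within the PC3 lists and 89.4, 96.9 and 49.6 within the T2E lists. T2E-2 covered most of it with a single peak of 4110 bp, while T2E-1 had 6 separate peaks there of 206 to 738 bp. T2E-3 had 3 peaks of 208 to 318 bp. The untreated peaks, of 211 bp from 22042471 and of 447 bp from 22040324, did not overlap each other, so the 5 lists met in the region without a base common to all. The other region, at 20508937 to 20510531, is 1595 bp long and had 1 peak per list, with scores of 5.63 and 8.31 in the PC3 lists and 7.01, 13.1 and 5.66 in the T2E lists. Its PC3-2 peak spans the whole region.

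Exactly 4 lists shared 5 regions, all between 20.3 and 20.6 Mb. That is 2.34% of the window's regions, with a 95% Wilson interval of 1.00 to 5.35%. The share was 0.80% in the rest of chromosome 15 and 1.15% of all regions, the latter inside that interval. The regions at 20511110 to 20512014 and 20505612 to 20506997 lay beside the second 5-list region and lacked PC3-1. The region at 20318860 to 20319462 lacked T2E-3, and its score percentiles ran from 41.6 in T2E-1 to 85.4 in T2E-2. The region at 20544002 to 20545038 also lacked T2E-3, with percentiles from 5.38 in PC3-1 to 95.1 in T2E-2. The region at 20451855 to 20452273 lacked PC3-2. T2E-2 ranked 6 of the 7 regions in 4 or 5 lists at percentile 85.4 or higher. T2E-3 held 5 of the 7, at percentiles from 9.66 to 49.6.

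**Figure D4:**
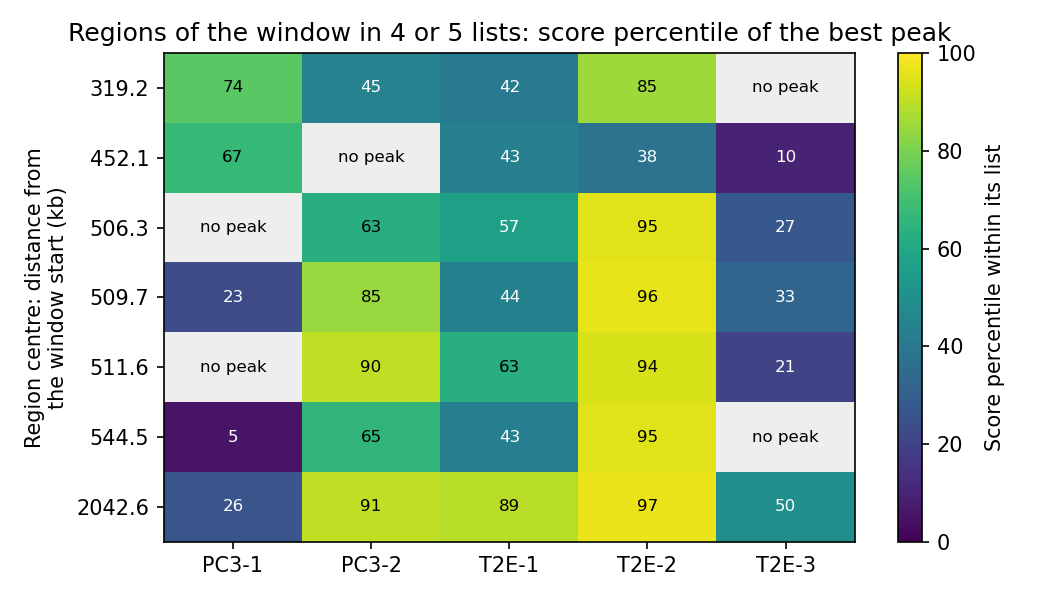
Score percentile within its list (colour and printed value) of the best peak of each list (columns) in the 7 window regions found in 4 or 5 lists (rows, by distance of the region's centre from the window start in kb); pale cells have no peak of that list. T2E-2 is above 80 in 6 of the 7 rows, and T2E-3 does not exceed 50.

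The 15 regions in exactly 3 lists were 7.01% of the window's regions, against 1.07% in the rest of chromosome 15 and 2.19% of all regions. The 10 best ranked of the 15 had mean percentiles from 55.2 to 72.9. The highest was at 20864515 to 20864930, with scores of 9.32 in PC3-1, 9.00 in T2E-1 and 9.08 in T2E-2. Next came 20557431 to 20558028 (11.2, 6.34 and 12.5 in the same lists) and the treated-only region named above. The others were at 20346441, 20477717, 20516325, 20555980, 20485813, 21004839 and 20507039, and 8 of the 10 lay in the 2 fullest bins.

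Width was compared within each list, because the lists have different narrowest peaks (199 and 332 bp in the PC3 lists, 193, 291 and 200 bp in the T2E lists). The median member was 248 bp wide against 212 bp for the rest of chromosome 15 in PC3-1, and 349 against 338.5 bp in PC3-2. It was 279 against 216 bp in T2E-1, 391.5 against 317 bp in T2E-2 and 212.5 against 225 bp in T2E-3. Members were wider in 4 of 5 lists, by 34.3 bp on average, and the exact two-sided sign-flip permutation test over the 5 lists gave p = 0.1875, with 0.0625 the smallest it can give. In T2E-3 the rest of the chromosome has only 6 peaks. With 1 list left out, the mean ranged from 24.25 bp (without T2E-2) to 46.0 bp (without T2E-3). Against all peaks outside the window on every chromosome it was 14.0 bp (exact sign-flip permutation p = 0.5). The median of the whole list was 376 bp in PC3-2 and 243 bp in T2E-3, above that of their members. It was 235, 234 and 323 bp in PC3-1, T2E-1 and T2E-2, below that of their members.

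The within-list width difference was 36.0 and 10.5 bp in the PC3 lists and 63.0, 74.5 and -12.5 bp in the T2E lists, which overlap (difference of means 18.4 bp, exact two-sided permutation p = 0.6; 45.5 bp without T2E-3 and 2.0 bp without T2E-2). Leaving out the peaks of the 2 fullest bins, a setting chosen after seeing the data, gave 46 bp (exact two-sided permutation p = 0.1). With all members kept, the within-list width difference was 27.0 bp larger with the drug in the pair with PC3-1. In the pair with PC3-2 it was 23.0 bp smaller with the drug (-23.0). Fewer members than other chromosome 15 peaks had exactly the narrowest width of their list, at 8.16% against 27.3% in PC3-1, 9.43% against 19.8% in T2E-1 and 14.4% against 34.4% in T2E-2. In PC3-2 the shares were 35.5% and 36.7%. Peaks of 700 bp or more were 13 of the 304 members, 9 of them in T2E-2, 3 in T2E-1 and 1 in PC3-2. In the rest of the chromosome they were 1 of 413 peaks. The share of such peaks over all chromosomes was not computed, so whether the window is unusual beyond chromosome 15 is not known. The widest were the 4110 bp peak of T2E-2 and the 1595 bp peak of PC3-2 described above. In T2E-1 the widest was 884 bp, at 20554061 to 20554944, and in PC3-1 it was 531 bp, at 20644288 to 20644818.

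The authors' score per peak, whose scale the files do not name, was read only as a rank within its list. The median member stood at percentile 43.5 and 53.1 in PC3-1 and PC3-2, against 49.8 and 52.2 for the rest of chromosome 15. In T2E-1, T2E-2 and T2E-3 it stood at 45.2, 58.7 and 26.2, against 44.6, 47.0 and 40.4. The difference was positive in 3 of 5 lists and averaged -1.46 points (exact two-sided sign-flip permutation p = 0.75), turning to 1.73 without T2E-3. By group it averaged -2.69 ± 5.12 points in the PC3 lists (SD, n = 2) and -0.647 ± 13.0 in the T2E lists (SD, n = 3), a difference of 2.04 points that was smaller than either spread (exact two-sided permutation p = 0.9). That difference was -1.58 without PC3-1, 5.67 without PC3-2, -4.12 without T2E-2 and 8.85 without T2E-3. Without the peaks of the 2 fullest bins it was 12 points (exact two-sided permutation p = 0.2). With all members kept, the treated minus untreated difference was 6.94 points in the pair with PC3-1 and -15.2 in the pair with PC3-2.

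No list had its strongest peak in the window. The highest-scoring member of PC3-1 was at 20301363 to 20301617 (score 15.4, percentile 82.5), and 400 peaks of that list scored higher. In PC3-2 it was the peak at 22040324 to 22040770 (9.64, percentile 90.5), below 193 others. In T2E-1 it was at 22900615 to 22900848 (17.9, percentile 92.2), below 382 others, and in T2E-2 at 20485942 to 20486660 (17.5, percentile 97.6), below 243 others. In T2E-3 the best member, at 21089296 to 21089504, stood at percentile 50.4 with a score of 7.47, below 262 of the list's 528 peaks.

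In each of the 5 lists the best member ranked below the best chromosome 15 peak outside the window, which stood at percentile 97.3 to 99.1. The top 10% of a list's scores held 0 of 49 and 2 of 31 members in the PC3 lists and 1 of 106, 16 of 104 and 0 of 14 in the T2E lists. T2E-2 thus had 16 of the 19 members of that rank. When each list kept only its 528 best-scoring peaks, the window held 2 and 6 peaks in the PC3 lists and 2, 8 and 14 in the T2E lists. T2E-3 has 528 peaks in all, so its 14 are all of its members, whatever their score.

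**Figure D5:**
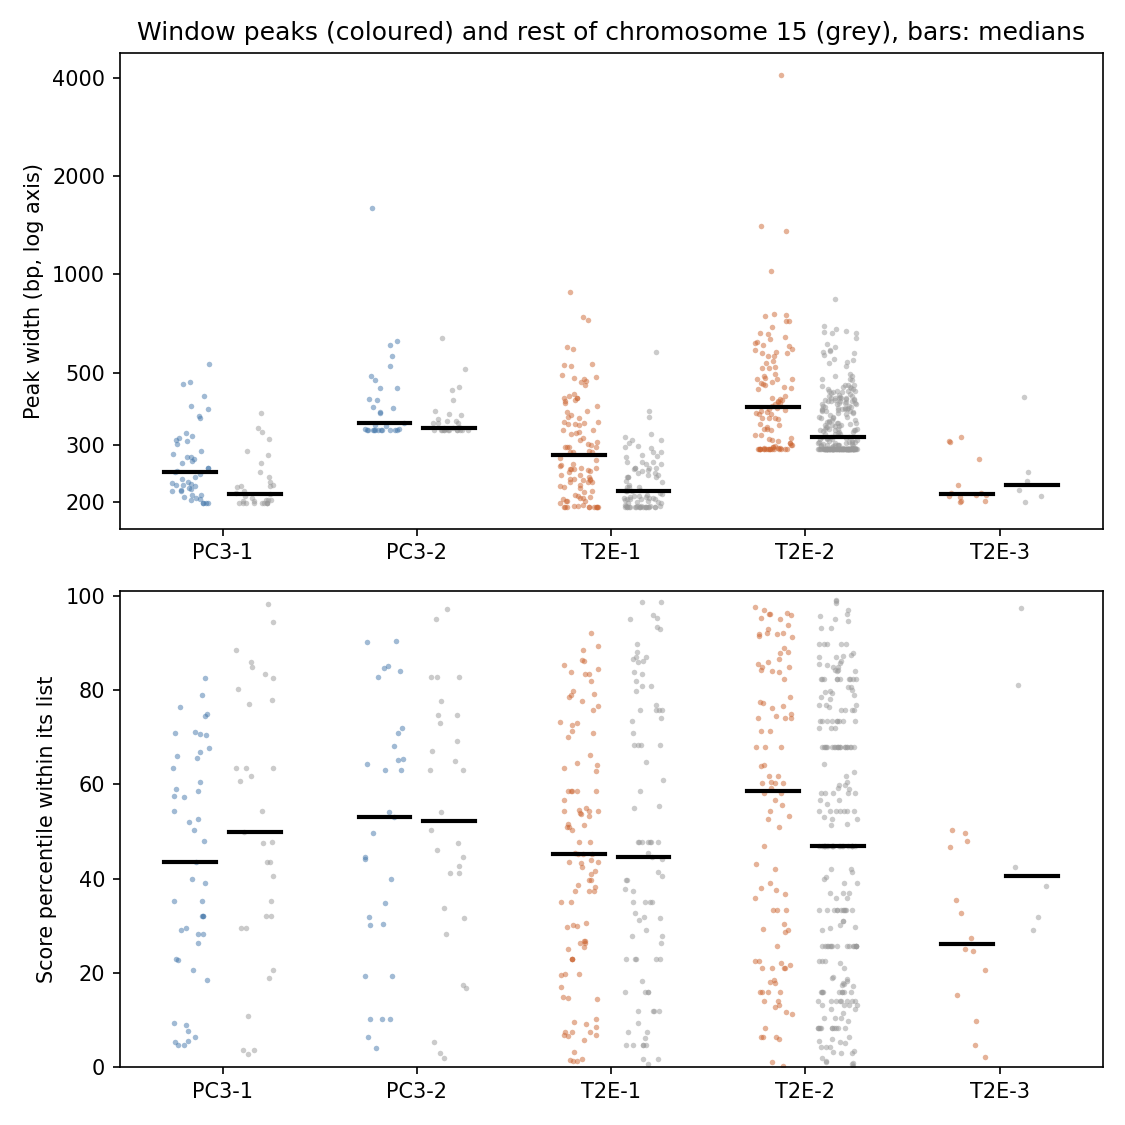
Width (bp, log axis, upper panel) and score percentile within its list (lower panel) of every chromosome 15 peak, by list; coloured points are window members, grey points the rest of the chromosome, and black bars medians. The coloured median is above the grey one for width in all lists but T2E-3, and for score percentile in PC3-2, T2E-1 and T2E-2.

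Shared members were not uniformly the higher ranked ones. Their median percentile was 33.6 against 52.0 for members private to the list in PC3-1, and 64.3 against 35.9 in PC3-2. In T2E-1, T2E-2 and T2E-3 it was 48.2 against 42.9, 74.8 against 53.3 and 25 against 35.4. Shared members were wider at the median in 4 lists, with 253.5 against 248 bp and 413 against 332 bp in the PC3 lists, 358.5 against 244.5 bp in T2E-1 and 423 against 377 bp in T2E-2. In T2E-3, with 3 private members, they measured 211 against 272 bp. Whether width and sharing are linked was not tested.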

How the data were processed

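The authors deposited a separate peak list for every p300 library; MACS2 and hg19 are named in the submitters' processing notes. Not given in the sources used here are the aligner, versions, thresholds, the input set against each library and the treatment of reads that match several places. The deposited lists have 5 columns without a header, the last a score per peak on a scale the files do not name. Values of the 4 input libraries were not used here. No hg19 genome or annotation was used, so no sequence, gene or repeat is assigned to a peak.

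Members were the peaks with a midpoint from 20 to 25 Mb of chromosome 15, and the rest of the chromosome ran to its last peak. Percentiles are ranks of the score within a list, with ties averaged. Overlap was 1 bp or more; merged regions take the best score of each list. The members, the settings and the tests were chosen with earlier results of these data known. Named regions are those in 5, 4 (up to 10) or 3 lists (up to 10), in both untreated or all 3 treated lists alone, up to 5 in exactly 2 treated lists, ordered by mean percentile, and the highest-scoring and widest member of each list. The replicate is the list: groups were compared over the 10 possible assignments of the 5 lists to 2 and 3, and window and rest over sign flips. The merging and the tests were tested on simulated data with planted regions. Alternatives were other window limits, score minimums, equal list lengths, other overlap rules, another reference, pairings of lists, and leaving out each list. Python 3.11.15, numpy 2.4.6, pandas 2.3.3 and scipy 1.17.1 were used.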

Additional observations from a re-analysis of the deposited data

Results flagged for a closer look

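Values that moved in opposite directions in the lists that share a run identifier are given here; each pair has 1 list per group, so none of these differences was tested. The log2 ratio of window peak numbers, treated over untreated, was 1.11 in PC3-1 and T2E-1 and -1.15 in PC3-2 and T2E-3. The window's share of chromosome 15 peaks changed by -5.95 percentage points in the first pair and 19.2 in the second. The width difference between window and rest changed by 27.0 bp in the first pair and -23.0 bp in the second, and the difference in score percentile by 6.94 and -15.2 points.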

How the results depend on the processing

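Of 136 alternative values, 109 stayed on the same side of 0 (counts within 1.5-fold), 18 changed sign and 9 counts moved by more. The 109 include every alternative of the window's density over its reference, with log2 ratios from 3.32 to 4.47. Density chose the window, so the steady sign of those ratios supports nothing. With scores at or above the pooled median of 5.90, the T2E minus PC3 difference was -0.45 points for the window's share of a list, -2.08 bp for width and -0.93 points for score percentile. With equal numbers of top-scoring peaks it was 17.3 points for the share of chromosome 15 peaks and -19.0 points for score percentile. In that setting T2E-3, the shortest list, stays whole while the others are cut to their best-scoring peaks. Pairing by run identifier gave -0.017 for the log2 number ratio, 6.62 points for the share of chromosome 15 peaks and -4.12 points for score percentile. Without the 2 fullest bins, a setting chosen after seeing the data, the share of chromosome 15 peaks differed by 0.68 points, width by 46 bp in place of 18.4 bp, score percentile by 12 in place of 2.04 points and the share of a list by 0.20 in place of 0.13 points. The replicate block, which pairs PC3-1 with T2E-1 and PC3-2 with T2E-2, gave -0.23 points for the share of a list and kept the sign of its other 4 values; only the first of these pairs has a common run identifier, and nothing else ties same-numbered lists together. Requiring 50% overlap gave 2 regions, and joining peaks within 500 bp gave 0 regions, found in the PC3 lists together and no T2E list, in place of 1.

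Leaving out 1 list gave -0.23 to 0.58 points for the share of a list, -13.8 to 6.62 points for the share of chromosome 15 peaks, -4.12 to 8.85 points for the group difference in score percentile, -4.75 to 1.73 points for score percentile against the rest and -10.7 to 26.6 points for same-group against between-group overlap. Regions in 2 or more lists then numbered 28 to 45, those in every PC3 list and no T2E list 1 to 30, and those in at least 2 T2E lists and no PC3 list 3 to 22, since fewer lists define each set. The cause of the other changes was not tested. Small numbers limit precision most in T2E-3, with 14 members and 6 peaks in the rest of the chromosome.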

Other observations

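Smaller runs of members, linked within 10 kb, lay away from the fullest bins. A run of 15.9 kb at the start of the window, from 20209262 to 20225175, held 8 peaks, with 0 and 1 in PC3-1 and PC3-2 and 3, 4 and 0 in T2E-1, T2E-2 and T2E-3. A run of 14.95 kb from 21350243 to 21365195 also held 8 peaks, with 1 and 1 untreated and 1, 5 and 0 treated. The run from 21215908 to 21242340 held 7 peaks, all in T2E-1 and T2E-2, with 4 and 3. Towards the distal end, the runs from 23387477 to 23405924 and from 23453718 to 23470282 held 7 peaks each, with 1 and 0 untreated and 3, 3 and 0 treated in the first, and 0 and 1 untreated and 2, 4 and 0 treated in the second. These runs were picked by their number of peaks after the values were seen and were not tested.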
